A study of Mus musculus with 6 samples.

Results

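The proteins described here move metabolites and ions across the mitochondrial membranes: the SLC25 family of mitochondrial carriers and the voltage-dependent anion channels (VDACs). Their genes were chosen by name. A row of the count table was a member if one of its gene names was Slc25a followed by a number, or *Vdac1*, *Vdac2* or *Vdac3*. This gave 50 genes of the 51499 loci in the table, 47 *Slc25* genes and 3 *Vdac* genes, and each had a locus of its own. Of these, 41 had enough counts to be tested, and the other 9 are given by their counts.

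The cells were wild-type mouse embryonic fibroblasts (WT MEFs). The methods describe immortalized WT MEFs in which both *Yme1l* alleles carry loxP sites. By the methods such cells are clones, grown out after exposure to Cre recombinase and kept as WT because the loxP alleles were intact. Whether the siRNA cultures came from this line is not stated there. The labels name the 3T3 protocol for immortalization, whereas the methods name the SV40 large T antigen. The control group received a scrambled siRNA (Scr) and the other group siRNA to *Yme1l*, which encodes a protease of the inner membrane, and RNA was collected after 72 h from 3 independent cultures per group. Both groups share the label WT MEF and the transfection, and the siRNA sequences and their number are not given in the sources used here.

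Solute carriers of the SLC25 family sit in the inner membrane, and most of them exchange a substrate of the matrix for one of the intermembrane space. Adenine nucleotide carriers export ATP against ADP, the phosphate carrier supplies phosphate for ATP synthesis, and other members carry nucleotides for mitochondrial DNA and RNA, carboxylates, amino acids, acylcarnitine, cofactors, iron or glutathione. VDACs are the pores of the outer membrane through which these solutes reach the carriers. Carriers are made in the cytosol as precursors without a cleaved presequence in most cases, and small TIM chaperones and the TIM22 translocase insert them into the inner membrane.

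*Yme1l1*, the gene the siRNA targets, had 170.5, 171 and 171 CPM (counts scaled to a common library size, with TMM factors) in the Scr cultures and 31.6, 23.4 and 45.04 CPM in the Yme1l siRNA cultures. This was a 5.12-fold lower level, with groups that did not overlap (log2 fold change -2.36 ± 0.20 (SE), edgeR adjusted p = 3.87e-05). Libraries held between 37260605 and 45205207 counts. Of the 8 fibroblast markers listed, 6 of the 7 tested fell, beside 29.6% of all loci tested. Among these 6, *Col1a1* fell the least, from 12695 to 8504 CPM (log2 fold change -0.58 ± 0.13 (SE)). *Col3a1* fell the most, from 4854 to 1699 CPM (log2 fold change -1.51 ± 0.17 (SE)). *Vim* did not pass the test at 3546 and 3102 CPM, and *Thy1* was at 0.00790 and 0.00767 CPM and was not tested. Of 14 markers of other cell types, 13 had group means under 1 CPM and *Cd68* had 46.8 and 42.8 CPM with overlapping groups. In such bulk samples fewer cells of a type and less RNA per cell cannot be told apart, and the part of the fall in fibroblast markers in the values below was not tested.

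*Slc25a33* and *Slc25a36* encode carriers of pyrimidine nucleotides, and *Slc25a33* is the carrier the study is concerned with. Their promoters are shown because the transcripts of this pair went in opposite directions, and with them are those of *Slc25a1*, which fell, and *Slc25a25*, which rose the most among the members tested. The window of *Slc25a16*, which fell the most, held none of the 8 motifs searched and is not shown. The sequences are from RefSeq (GRCm38.p6), run 5′ to 3′ on the minus strand, on which all 4 genes lie, and end at the base before the RefSeq start. They are chr4:149774268-149774517, chr9:97111158-97111291, chr16:17928220-17928469 and chr2:32451471-32451720, the last being the outermost of the RefSeq starts of its gene. The window of *Slc25a36* stops 116 bases short of its RefSeq start, where the GENCODE gene begins. The last 10 bases of the *Slc25a33* window, which hold its E-box, also lie inside the GENCODE gene. Capitals mark the E-box CACGTG, the cyclic AMP response element TGACGTCA and the CCAAT box, on either strand.
Slc25a33: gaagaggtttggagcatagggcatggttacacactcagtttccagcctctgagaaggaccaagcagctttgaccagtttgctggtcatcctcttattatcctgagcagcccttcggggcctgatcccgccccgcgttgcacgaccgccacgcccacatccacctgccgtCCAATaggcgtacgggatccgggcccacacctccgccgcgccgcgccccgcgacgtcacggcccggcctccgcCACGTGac
Slc25a36: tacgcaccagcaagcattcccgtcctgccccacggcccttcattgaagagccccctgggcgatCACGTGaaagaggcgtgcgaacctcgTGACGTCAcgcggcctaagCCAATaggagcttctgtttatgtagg
Slc25a1: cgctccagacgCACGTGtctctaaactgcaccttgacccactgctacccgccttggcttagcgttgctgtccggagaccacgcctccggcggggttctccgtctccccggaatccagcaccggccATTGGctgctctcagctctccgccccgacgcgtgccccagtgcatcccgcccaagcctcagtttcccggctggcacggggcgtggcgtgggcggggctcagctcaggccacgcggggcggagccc
Slc25a25: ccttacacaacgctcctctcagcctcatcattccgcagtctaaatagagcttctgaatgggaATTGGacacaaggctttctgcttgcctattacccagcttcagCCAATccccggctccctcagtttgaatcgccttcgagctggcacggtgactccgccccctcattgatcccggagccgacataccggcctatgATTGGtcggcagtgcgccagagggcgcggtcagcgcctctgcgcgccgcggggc

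An E-box was present in the windows of *Slc25a33*, *Slc25a36* and *Slc25a1*, beginning 8, 187 and 239 bases before the start. It occurred in 8.14% of the 13281 promoters of tested genes, in the 250 bases before the start. The cyclic AMP response element was present in the window of *Slc25a36* at 161 bases, and in 2.46% of all these promoters. All 4 windows shown held a CCAAT box, and 35.5% of the promoters of tested genes did. The window of *Slc25a16* was left out for holding no motif, so this choice of windows allows no comparison. Of the 48 windows found for 37 members, 8 held an E-box, 2 the cyclic AMP response element and 21 a CCAAT box. These windows include members that were not tested. The same E-box of *Slc25a14* lies in overlapping windows, at 54 and 184 bases, and counts in each. The other window with the cyclic AMP response element belongs to an inner start of *Slc25a25*. Other motifs were searched on both strands as well, and no match overlapped another in the windows shown. The NRF1 motif GCGCATGCG, the ERR motif TCAAGGTCA and the ATF4-CEBP motif TGATGCAA were in 0 member windows, against 2.8%, 0.248% and 0.542% of the promoters of tested genes. The sterol element TCACNCCAC was in 1 member window and the interferon element core GAAANNGAA in 4, against 1.04% and 6.17%. These matches describe letters in a window and were not tested against the changes.

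After knockdown, *Slc25a33* transcripts rose and *Slc25a36* transcripts fell. *Slc25a33* (chromosome 4, 149744036 to 149774277, minus strand, GRCm38) had 19.0, 19.8 and 20.8 CPM in Scr and 25.3, 24.4 and 24.8 CPM in Yme1l siRNA cultures. All 3 knockdown cultures were above all 3 controls, by 1.25-fold (log2 fold change 0.32 ± 0.07 (SE), edgeR adjusted p = 0.00532). *Slc25a36* (chromosome 9, 97074961 to 97111157, minus strand) had 88.6, 87.8 and 90.9 CPM in Scr and 49.4, 49.4 and 52.2 CPM in Yme1l siRNA cultures. Here every knockdown culture was below every control, by 1.77-fold (log2 fold change -0.82 ± 0.06 (SE), edgeR adjusted p = 2.15e-05). Both calls held under all 16 alternatives to the processing. An antisense gene, *Gm13068*, overlaps *Slc25a33* and had no counts in any library, and *Gm13217*, a near-identical copy of *Slc25a36*, had 1.48 and 0.812 CPM.

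Compared per length, the pair shifted towards *Slc25a33*. The lengths were those of the merged exons, 1887 bases for *Slc25a33* and 9594 bases for *Slc25a36*. In CPM without this division *Slc25a36* stayed the higher, at 89.1 against 19.8 in Scr and 50.3 against 24.9 in Yme1l siRNA cultures. The shares, the ratio and the sum below depend on these lengths. In CPM per kilobase of exon, *Slc25a33* made up 52.1, 53.4 and 53.7% of the summed level of the pair in the Scr cultures and 72.3, 71.5 and 70.8% in the Yme1l siRNA cultures. The ratio of *Slc25a33* to *Slc25a36* was 1.13 ± 0.0388 (SD, n = 3) in Scr and 2.51 ± 0.0950 in Yme1l siRNA cultures, and the groups did not overlap. The sum of both was 19.8 ± 0.612 and 18.4 ± 0.299 CPM per kilobase, lower in all 3 knockdown cultures. With 3 cultures against 3, an exact permutation test of such a ratio or sum (two-sided) cannot go below p = 0.1, which is the value for each of these 3 measures.

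**Figure D1:**
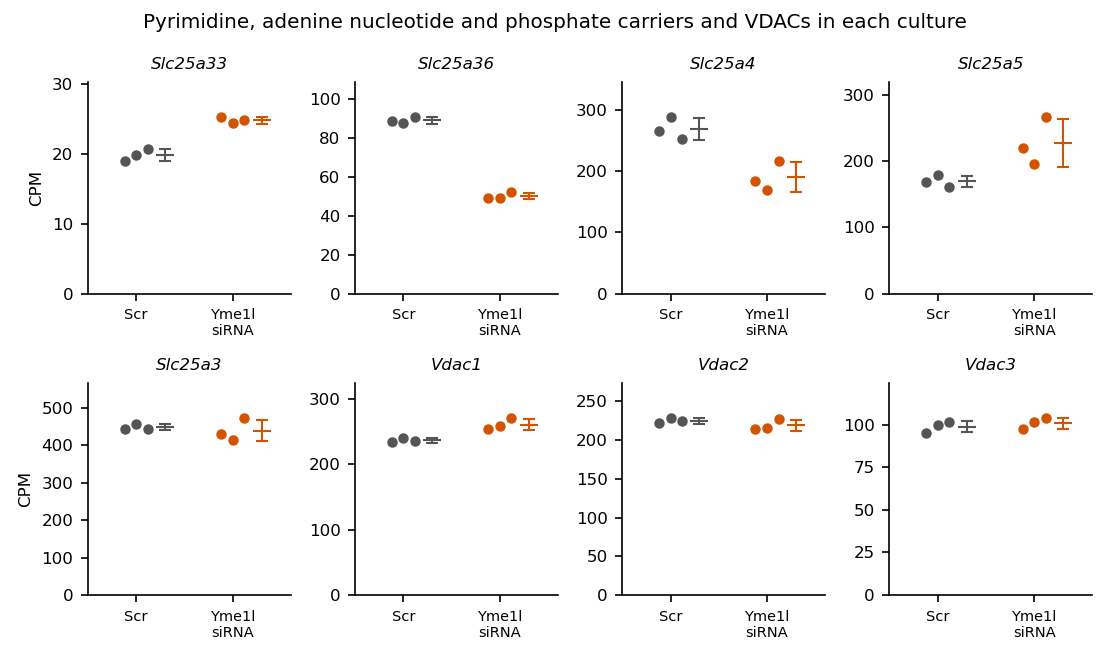
CPM (vertical axes, from 0) of 8 genes in each culture, with Scr in grey and Yme1l siRNA in orange; points are the 3 cultures and bars beside them the mean ± SD. *Slc25a33*, *Slc25a5* and *Vdac1* sit higher in all 3 knockdown cultures, *Slc25a36* and *Slc25a4* lower, and the groups of *Slc25a3*, *Vdac2* and *Vdac3* overlap.

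Across the whole set, the carrier genes moved in both directions. Of the 41 tested, 14 rose and 13 fell at an adjusted p under 0.05, which is 34.1% and 31.7% of them, while 28.4% of all 14499 loci tested rose and 29.6% fell. At an adjusted p under 0.01 the numbers were 9 and 8, beside 20.3% and 22.2% of all loci. Called in either direction were 27 members (65.9%), beside 58.0% of all loci. The groups did not overlap for 29 members (70.7%), 15 of them higher and 14 lower, beside 65.4% of all loci. Only *Slc25a16* of the 41 was called with a change of at least 2-fold (2.44%), beside 15.5% of all loci. The median log2 fold change was 0.01 for the members tested and 0.01 for all loci, and the median size of the change 0.37 and 0.42. The number that rose was between 11 and 13 when 1 library was left out, and the number that fell was between 8 and 10, with 8 without Scr replicate 1, Scr replicate 2 or Yme1l siRNA replicate 1. Over all loci, between 3451 and 4133 rose and between 3616 and 4312 fell with 1 library left out, of 14705 to 14836 tested. With no library left out, 4123 rose and 4288 fell. The member counts are over chosen genes and carry no test of the set.

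**Figure D2:**
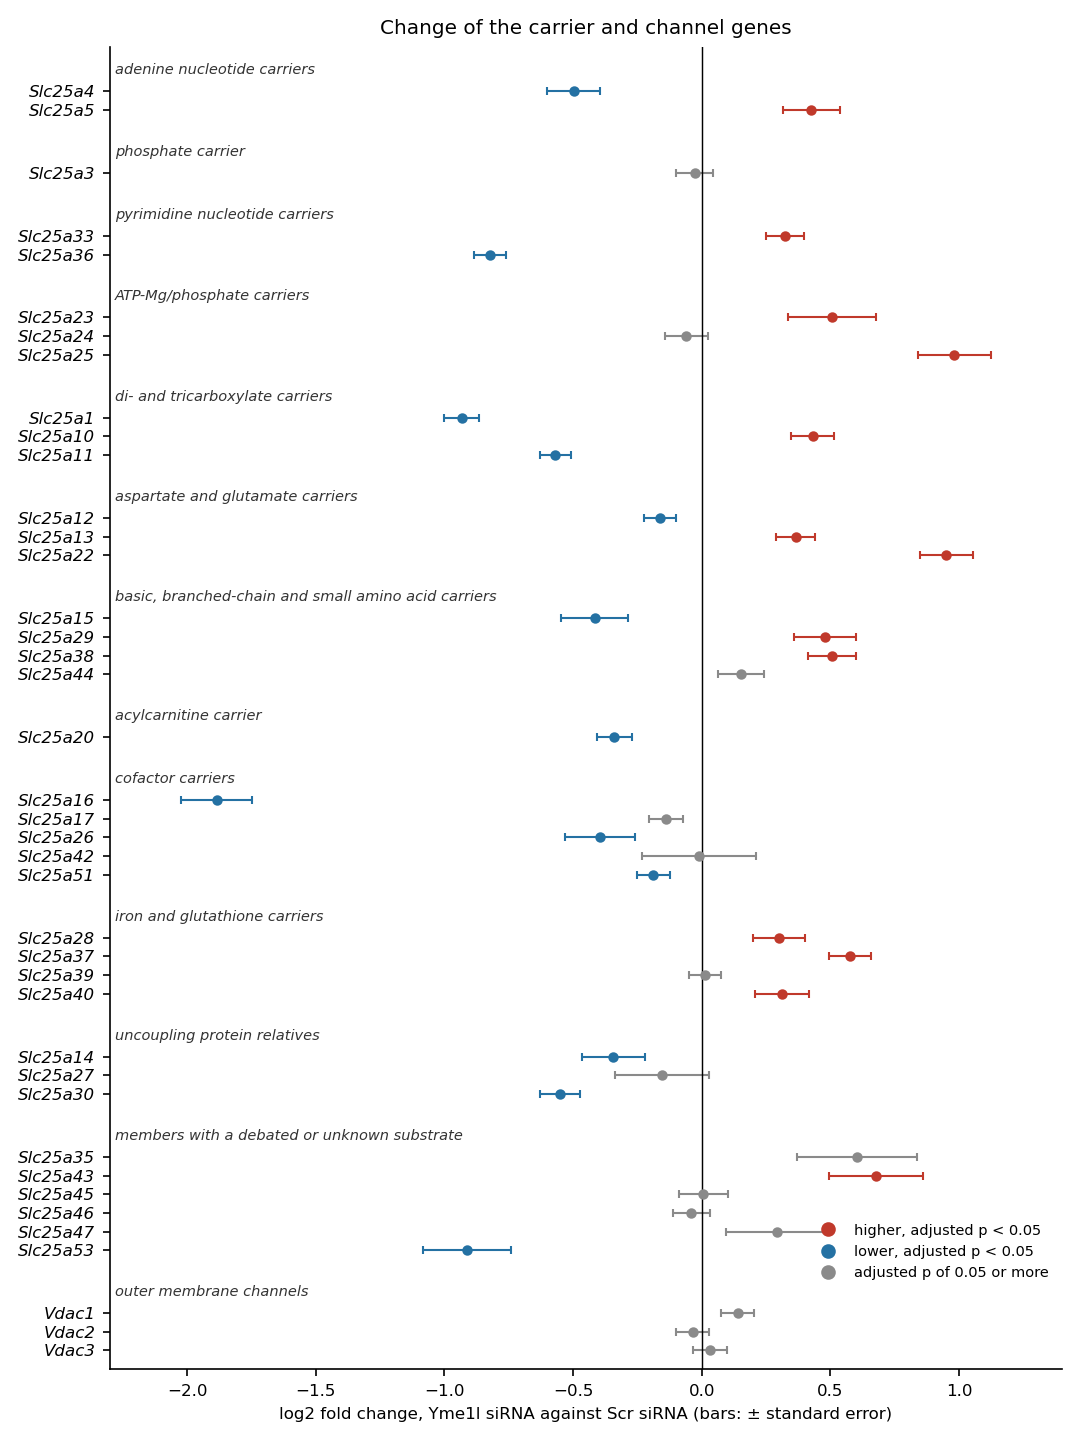
Log2 fold change of Yme1l siRNA against Scr cultures (horizontal axis) for 40 of the 41 genes tested, grouped by role; points are estimates and bars ± 1 standard error. Red points rose, blue points fell and grey points did not pass an adjusted p of 0.05, and *Slc25a16* lies farthest from 0 at -1.88.

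The adenine nucleotide carriers also went in opposite directions. *Slc25a4* (chromosome 8, 46206797 to 46211284, minus strand), the isoform that predominates in heart and skeletal muscle, had 265, 289 and 253 CPM in Scr and 185, 169 and 217 CPM in Yme1l siRNA cultures. It was 1.41-fold lower, and the groups did not overlap (log2 fold change -0.50 ± 0.10 (SE), edgeR adjusted p = 0.00318). *Slc25a5* (chromosome X, 36795651 to 36798807, plus strand), the isoform of proliferating cells, had 169, 179 and 162 CPM in Scr and 221, 196 and 267 CPM in Yme1l siRNA cultures. It was higher in all 3 knockdown cultures, by 1.34-fold, with replicate 3 the highest (log2 fold change 0.43 ± 0.11 (SE), edgeR adjusted p = 0.0109). Its near-identical copies *Gm5560* and *Gm5529* had 2.67 and 0.857 CPM in Scr and 4.41 and 1.19 CPM in Yme1l siRNA cultures. The germ-line isoform *Slc25a31* had at most 2 counts in a library.

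The summed level of both isoforms overlapped between groups, whereas their proportions did not. The sum was 217 ± 12.9 CPM per kilobase in Scr and 219.5 ± 32.5 (SD, n = 3) in Yme1l siRNA cultures. *Slc25a5* made up 47.6, 46.9 and 47.8% of the sum in the Scr cultures and 63.1, 62.3 and 63.8% in the knockdown cultures. The shares of the 2 groups were far apart relative to the spread within them, and the exact permutation p was 0.1, the smallest it can give. *Slc25a3*, the phosphate carrier, had 442, 457 and 444 CPM in Scr and 431, 415 and 472 CPM in Yme1l siRNA cultures. Its groups overlapped (log2 fold change -0.03 ± 0.07 (SE), edgeR adjusted p = 0.762).

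None of the 3 *Vdac* genes passed the test in edgeR, beside 58.0% of all loci that did, and none had an unadjusted p under 0.05. DESeq2 and limma-voom also called 0 of the 3. *Vdac1*, the most abundant of them, had 234, 241 and 236 CPM in Scr and 254, 258 and 271 CPM in Yme1l siRNA cultures, with groups that did not overlap (log2 fold change 0.14 ± 0.06 (SE), edgeR adjusted p = 0.0912). Its adjusted p was 0.0327 when the test was limited to loci averaging 50 counts or more. For *Vdac2* the values were 222, 228 and 224 CPM and 214, 216 and 227 CPM, and for *Vdac3* they were 95.2, 99.7 and 101 CPM and 97.4, 102 and 104 CPM. Both overlapped between groups, with log2 fold changes of -0.04 ± 0.06 and 0.03 ± 0.07 (SE). The pseudogene *Vdac3-ps1*, near-identical to *Vdac3*, had 15.5 and 17.6 CPM.

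Within the VDACs the proportions moved by a few percentage points. In CPM per kilobase, *Vdac1* made up 58.1 ± 0.201% (SD, n = 3) of the sum in Scr and 60.7 ± 0.0598% in Yme1l siRNA cultures, and *Vdac2* 30.2 ± 0.0742% and 28.0 ± 0.105%. Neither share overlapped between groups (exact permutation p = 0.1, the smallest possible). The share of *Vdac3* overlapped, at 11.7 ± 0.265% and 11.3 ± 0.160%. The summed level per kilobase was 156 ± 2.54 in Scr and 164 ± 5.32 in Yme1l siRNA cultures, higher in all 3 knockdown cultures (exact permutation p = 0.1), whereas the plain summed CPM overlapped, at 560.4 ± 9.36 and 581 ± 18.7.

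**Figure D3:**
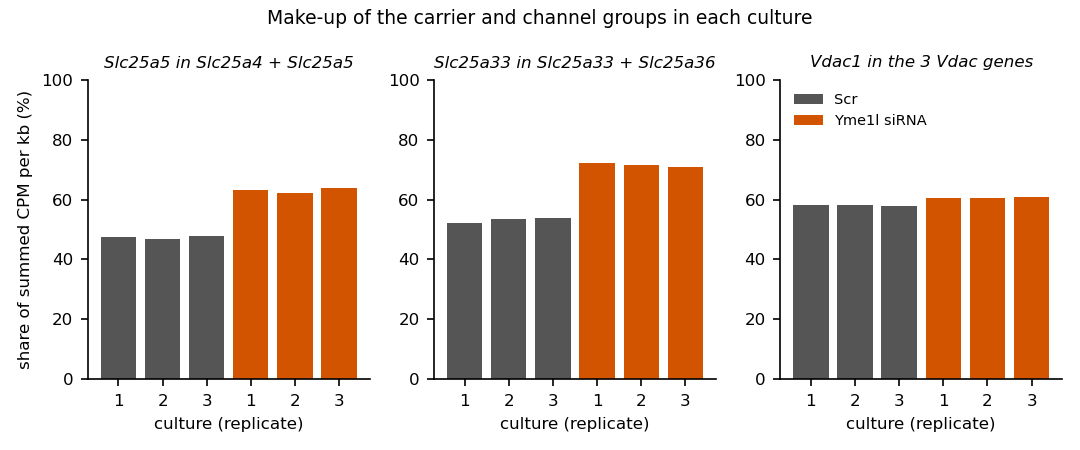
Share of the summed CPM per kilobase (vertical axis, percent, from 0) of *Slc25a5* within *Slc25a4* and *Slc25a5*, of *Slc25a33* within *Slc25a33* and *Slc25a36*, and of *Vdac1* within the 3 *Vdac* genes, 1 bar per culture. The *Slc25a5* bars step up from 47.4% to 63.1% and the *Slc25a33* bars from 53.1% to 71.5% on average, and those of *Vdac1* by less. The height of the bars depends on the merged exon lengths used.

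The ATP-Mg/phosphate carriers change the adenine nucleotide pool of the matrix, and most of them are activated by calcium. Of the 3 tested, 2 rose, beside 28.4% of all loci, and 1 did not pass the test. *Slc25a25* (chromosome 2, 32414487 to 32451445, minus strand) had 24.4, 26.3 and 30.004 CPM in Scr and 51.2, 64.4 and 43.7 CPM in Yme1l siRNA cultures. This was the largest rise among the members tested, at 1.98-fold, and the groups did not overlap although the knockdown cultures varied (log2 fold change 0.98 ± 0.14 (SE), edgeR adjusted p = 4.98e-04). *Slc25a23* rose with groups that overlapped (log2 fold change 0.51 ± 0.17 (SE), edgeR adjusted p = 0.0316). *Slc25a24*, the most abundant of the 3, had 147 ± 2.82 CPM in Scr and 141 ± 14.1 CPM in Yme1l siRNA cultures (SD, n = 3) and did not pass the test. *Naif1*, which overlaps *Slc25a25*, had 9.30 and 10.3 CPM and was not called. *Slc25a41* had 1 count in 1 library and *Slc25a54* none in any, which allows up to 3 counts per library or between 0.0676 and 0.0831 CPM, counting error only.

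Among the carriers of di- and tricarboxylates, the citrate and oxoglutarate carriers fell and the dicarboxylate carrier rose. *Slc25a1* (chromosome 16, 17925223 to 17928219, minus strand), which exports citrate for lipid synthesis in the cytosol, had 75.7, 74.0 and 70.1 CPM in Scr and 36.5, 39.8 and 38.9 CPM in Yme1l siRNA cultures. Every knockdown culture was below every control, by 1.91-fold (log2 fold change -0.93 ± 0.07 (SE), edgeR adjusted p = 1.80e-05). *Slc25a11* (chromosome 11, 70644196 to 70647479, minus strand), the oxoglutarate and malate exchanger of the malate-aspartate shuttle, had 90.8, 91.6 and 91.3 CPM and 62.4, 60.5 and 61.6 CPM. It was lower in all 3 knockdown cultures, with the narrowest spread of the group (log2 fold change -0.57 ± 0.06 (SE), edgeR adjusted p = 9.37e-05), and *Rnf167*, which overlaps it, had 23.3 and 24.2 CPM. *Slc25a10* (chromosome 11, 120491840 to 120499187, plus strand), which exchanges malate or succinate for phosphate, had 44.3, 45.9 and 51.6 CPM and 58.9, 64.9 and 67.6 CPM. Its groups did not overlap, with the knockdown cultures higher (log2 fold change 0.43 ± 0.08 (SE), edgeR adjusted p = 0.00238). The oxodicarboxylate carrier *Slc25a21* had 3 counts in 1 library and none in the others.

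The aspartate and glutamate carriers divided as well. *Slc25a22* (chromosome 7, 141429744 to 141437892, minus strand), a glutamate carrier, had 30.4, 28.3 and 29.9 CPM in Scr and 56.1, 65.5 and 49.7 CPM in Yme1l siRNA cultures. All knockdown cultures lay above the controls, by 1.93-fold on average (log2 fold change 0.95 ± 0.10 (SE), edgeR adjusted p = 1.04e-04). *Slc25a13*, the aspartate/glutamate carrier of most tissues outside brain and muscle, was higher, with 34.8 ± 1.66 CPM in Scr and 44.8 ± 3.16 CPM in Yme1l siRNA cultures (SD, n = 3, log2 fold change 0.37 ± 0.08 (SE), edgeR adjusted p = 0.00352). Its relative *Slc25a12*, the form of brain and muscle, had a log2 fold change of -0.16 ± 0.06 (SE) at an edgeR adjusted p of 0.0493, just under the threshold. The second glutamate carrier, *Slc25a18*, had between 3 and 11 counts per library and was not tested.

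Of the carriers of other amino acids, 2 of the 4 tested rose and 1 fell, beside 28.4% and 29.6% of all loci. *Slc25a38* (chromosome 9, 120110374 to 120124504, plus strand), which imports glycine for heme synthesis, had 10.2, 9.98 and 9.17 CPM in Scr and 13.9, 13.8 and 14.0 CPM in Yme1l siRNA cultures. The knockdown cultures lay within 0.2 CPM of each other and above all controls (log2 fold change 0.51 ± 0.09 (SE), edgeR adjusted p = 0.00168). *Slc25a29* (chromosome 12, 108825873 to 108835883, minus strand), a carrier of basic amino acids, had 5.24, 5.15 and 4.74 CPM and 6.70, 6.99 and 7.404 CPM. It was higher in all knockdown cultures (log2 fold change 0.48 ± 0.12 (SE), edgeR adjusted p = 0.00898). *Slc25a15* (chromosome 8, 22375551 to 22398597), the ornithine carrier of the urea cycle, had 6.05, 5.82 and 5.93 CPM and 4.06, 4.42 and 4.86 CPM. Here the knockdown cultures were lower without overlap (log2 fold change -0.42 ± 0.13 (SE), edgeR adjusted p = 0.0237). *Slc25a44*, a carrier of branched-chain amino acids, had 68.5 ± 1.36 CPM in Scr and 76.1 ± 8.80 CPM in Yme1l siRNA cultures (SD, n = 3) and did not pass the test. *Slc25a20*, the carnitine/acylcarnitine carrier for fatty acid oxidation, fell from 39.2 to 31.0 CPM (log2 fold change -0.34 ± 0.07 (SE), edgeR adjusted p = 0.00273).

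The largest change of any member was in a cofactor carrier. *Slc25a16* (chromosome 10, 62920633 to 62946498, plus strand), related to coenzyme A carriers, had 25.0, 27.2 and 25.8 CPM in Scr and 6.27, 6.19 and 8.66 CPM in Yme1l siRNA cultures. It was 3.69-fold lower in the knockdown cultures, far outside the spread of either group (log2 fold change -1.88 ± 0.14 (SE), edgeR adjusted p = 1.91e-05). *Slc25a42*, a carrier of coenzyme A, had 3.67 ± 0.856 CPM in Scr and 3.65 ± 0.753 CPM in Yme1l siRNA cultures (SD, n = 3) and did not pass the test. *Slc25a26*, the S-adenosylmethionine carrier, and *Slc25a51*, the NAD+ carrier, fell by smaller amounts, with log2 fold changes of -0.40 ± 0.14 and -0.19 ± 0.06 (SE, edgeR adjusted p = 0.0344 and 0.0325). *Lrig1*, which overlaps *Slc25a26*, rose from 240.2 to 369 CPM. *Slc25a17*, found in peroxisomes, was lower in all 3 knockdown cultures at 116 ± 5.03 CPM in Scr and 106 ± 1.24 CPM in Yme1l siRNA cultures (SD, n = 3) but did not pass the test (edgeR adjusted p = 0.101).

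*Slc25a32*, which carries folate or FAD, was listed at 0 counts in all 6 libraries. *Dcaf13*, whose start lies 149 bases away on the other strand of chromosome 15, had 51.0 and 59.9 CPM. Whether reads of *Slc25a32* were assigned to another locus was not tested.

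Of the 4 iron and glutathione carriers tested, 3 rose, beside 28.4% of all loci, and *Slc25a39*, which imports glutathione, did not pass the test at 259 ± 3.02 CPM in Scr and 261 ± 3.65 CPM in Yme1l siRNA cultures (SD, n = 3). *Slc25a37* (chromosome 14, 69241848 to 69285112, minus strand), the mitoferrin of erythroid cells, had 155, 149 and 147 CPM in Scr and 208, 248 and 216 CPM in Yme1l siRNA cultures. All knockdown cultures were above the controls, by 1.49-fold (log2 fold change 0.58 ± 0.08 (SE), edgeR adjusted p = 4.79e-04). *Slc25a28*, the mitoferrin of other tissues, rose from 23.3 to 28.7 CPM, and *Slc25a40*, a relative of *Slc25a39*, from 16.3 to 20.2 CPM (log2 fold changes 0.30 ± 0.10 and 0.31 ± 0.11 (SE), edgeR adjusted p = 0.0313 and 0.0334). Both of these calls were lost without Scr replicate 1, Scr replicate 2 or Yme1l siRNA replicate 1. Per length, *Slc25a37* was 4.03 ± 0.381 times the level of *Slc25a28* in Scr and 4.88 ± 0.347 times in Yme1l siRNA cultures (SD, n = 3), without overlap.

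The relatives of the uncoupling proteins had no rise past the threshold, and 2 of the 3 tested fell, beside 28.4% and 29.6% of all loci. *Slc25a30* (chromosome 14, 75760117 to 75787037) had 39.4, 35.6 and 36.0 CPM in Scr and 25.3, 23.8 and 26.6 CPM in Yme1l siRNA cultures. It was lower in all knockdown cultures (log2 fold change -0.55 ± 0.08 (SE), edgeR adjusted p = 4.29e-04). *Slc25a14* also fell (log2 fold change -0.34 ± 0.12 (SE), edgeR adjusted p = 0.0396), and *Slc25a27* had 2.41 ± 0.0710 CPM in Scr and 2.17 ± 0.334 CPM in Yme1l siRNA cultures (SD, n = 3) with overlapping groups.

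Of 6 members tested whose substrate is debated or unknown, 1 rose and 1 fell, beside 28.4% and 29.6% of all loci. *Slc25a53* (chromosome X, 136981116 to 137038302, minus strand) had 6.58, 6.65 and 6.14 CPM in Scr and 4.08, 3.50 and 2.71 CPM in Yme1l siRNA cultures. The knockdown cultures were lower by 1.88-fold without overlap (log2 fold change -0.91 ± 0.17 (SE), edgeR adjusted p = 0.00196). *Slc25a43* (chromosome X, 36743659 to 36777202, plus strand) had 1.25, 1.44 and 1.33 CPM and 2.07, 2.05 and 2.30 CPM. It was higher in every knockdown culture, at a low level (log2 fold change 0.68 ± 0.18 (SE), edgeR adjusted p = 0.0118). *Slc25a35* had 1.201, 0.831 and 1.11 CPM and 1.35, 1.84 and 1.61 CPM, with no overlap but an edgeR adjusted p of 0.0517, and *Rangrf*, which overlaps it, rose from 4.90 to 9.64 CPM. *Slc25a46*, an outer membrane protein of mitochondrial dynamics, had a log2 fold change of -0.04 ± 0.07 (SE), *Slc25a45* one of 0.01 ± 0.09 and *Slc25a47* one of 0.29 ± 0.20, and none of these passed the test. *Slc25a34* had 8, 3 and 4 counts in Scr and 0, 2 and 0 counts in Yme1l siRNA cultures, too few for a test. *Slc25a48*, and *Slc25a2* among the ornithine carriers, had at most 2 and 9 counts in a library.

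**Figure D4:**
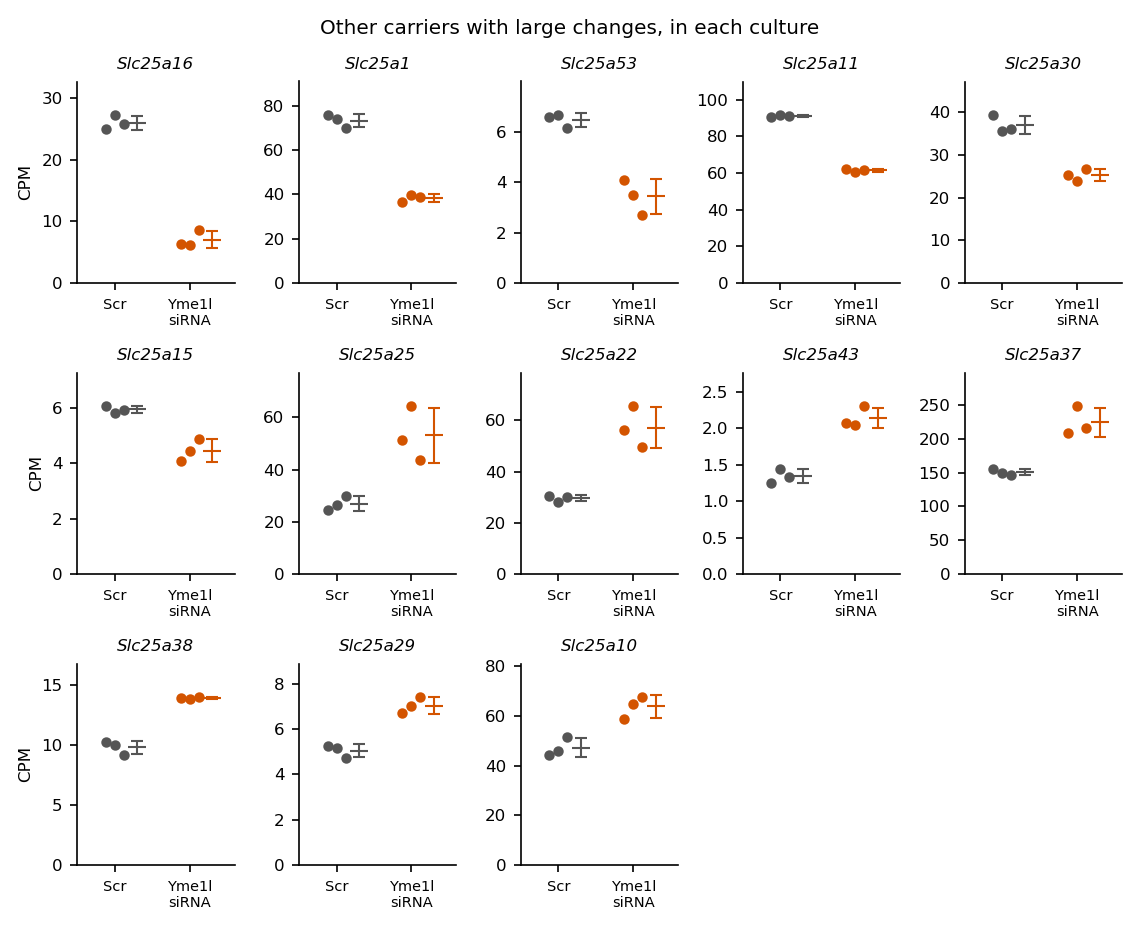
CPM (vertical axes, from 0) of 13 carriers in each culture, chosen among those with large called changes without overlap and not drawn in the plot of pyrimidine, adenine nucleotide and phosphate carriers and VDACs, with Scr in grey and Yme1l siRNA in orange; points are the 3 cultures and bars the mean ± SD. *Slc25a16*, *Slc25a1*, *Slc25a53*, *Slc25a11*, *Slc25a30* and *Slc25a15* sit lower in all 3 knockdown cultures and the other 7 higher.

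Several smaller calls changed when 1 library was left out. The part of the library itself and that of having fewer cultures cannot be told apart here. Calls of *Slc25a12* and *Slc25a14* were lost whichever library was left out, with edgeR adjusted p of up to 0.13 and 0.0946. Their log2 fold changes stayed between -0.1942 and -0.1477 and between -0.3958 and -0.2863. *Slc25a51* and *Slc25a28* kept theirs only without Yme1l siRNA replicate 3 (otherwise up to 0.103 and 0.118), and *Slc25a26* only without Yme1l siRNA replicate 2 (otherwise up to 0.106). The call of *Slc25a15* was lost without Scr replicate 1 or 2 or Yme1l siRNA replicate 1 or 2 (up to 0.093). For *Slc25a40* it was lost without Scr replicate 1 or 2 or Yme1l siRNA replicate 1 or 3 (up to 0.129), and for *Slc25a23* without Scr replicate 2 or 3 or Yme1l siRNA replicate 1 or 3 (up to 0.11). *Slc25a44* was called only without Yme1l siRNA replicate 3 (edgeR adjusted p = 0.0418). The direction of each of these 9 genes was kept in every case.

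Per length, a few members made up most of the summed level. The length was that of the merged exons, 5550 bases for *Slc25a3*, 2353 for *Slc25a4* and 1646 for *Slc25a5*. In CPM without this division *Slc25a3* was the highest in Scr, at 448 against 269 and 170, so the order depends on these lengths. In Scr cultures the order was *Slc25a4* at 114 ± 7.72, *Slc25a5* at 103 ± 5.14, *Slc25a39* at 94.0 ± 1.095, *Vdac1* at 90.4 ± 1.46 and *Slc25a3* at 80.7 ± 1.502 CPM per kilobase (SD, n = 3). *Slc25a4* and *Slc25a5* overlapped in this order, and the next neighbours did not. In Yme1l siRNA cultures *Slc25a5* came first at 139 ± 22.1, followed by *Vdac1* at 99.6 ± 3.28, *Slc25a39* at 94.8 ± 1.33, *Slc25a4* at 81.0 ± 10.4 and *Slc25a3* at 79.1 ± 5.27 CPM per kilobase. *Slc25a3*, *Slc25a4*, *Slc25a5* and *Slc25a39* together held 52.4 ± 1.04% of the summed *Slc25* level per kilobase in Scr and 53.5 ± 2.50% in Yme1l siRNA cultures, with overlapping groups. The summed CPM of all *Slc25* members overlapped too, at 2531 ± 27.7 and 2507 ± 82.9 (SD, n = 3).

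The genes that insert or surround the carriers were listed by function. Of 16 carrier import genes, all tested, 7 rose and 5 fell, and the loci of *Timm10b* and *Tomm6* among them also hold other genes. *Timm8a1*, a small TIM chaperone, rose from 31.0 to 68.4 CPM (log2 fold change 1.14 ± 0.08 (SE), edgeR adjusted p = 1.93e-05), and *Tomm22*, a receptor of the outer membrane translocase, fell from 192 to 99.5 CPM (log2 fold change -0.95 ± 0.14 (SE), edgeR adjusted p = 5.89e-04). The locus that joins *Timm10b*, another small chaperone, with *Dnhd1* and *Gm45799* fell from 30.5 to 22.0 CPM (log2 fold change -0.47 ± 0.07 (SE), edgeR adjusted p = 7.19e-04). The TIM22 translocase subunits *Timm22*, *Timm29* and *Agk* did not pass the test, with log2 fold changes of 0.13 ± 0.08, -0.18 ± 0.09 and 0.06 ± 0.08 (SE).

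Among 20 tested transporters of mitochondria outside both families, 4 rose and 8 fell, with *Smdt1*, which rose, at a locus shared with *Fam109b*. *Sfxn2* rose from 10.5 to 28.2 CPM and *Sfxn3* fell from 115 to 54.3 CPM, both of the sideroflexin family that carries serine (log2 fold changes 1.42 ± 0.14 and -1.08 ± 0.09 (SE), edgeR adjusted p = 6.99e-05 and 2.65e-05). *Slc8b1*, the sodium/calcium exchanger of the inner membrane, fell from 60.7 to 39.0 CPM (log2 fold change -0.64 ± 0.08 (SE), edgeR adjusted p = 1.90e-04). Of 8 tested partners of VDACs or adenine nucleotide carriers, 4 rose and 3 fell, with *Bax*, which rose, at a locus shared with *Dhdh* and *Gm45808*. *Hk2*, a hexokinase that docks on VDACs, rose from 25.3 to 75.5 CPM (log2 fold change 1.58 ± 0.06 (SE), edgeR adjusted p = 3.26e-06), while *Hk1* fell from 296 to 222 CPM (log2 fold change -0.41 ± 0.09 (SE), edgeR adjusted p = 0.00432). *Ppif*, which encodes cyclophilin D, rose from 46.0 to 76.6 CPM (log2 fold change 0.73 ± 0.06 (SE), edgeR adjusted p = 3.27e-05), and *Mcl1*, an antiapoptotic protein of the outer membrane, fell from 228 to 166 CPM (edgeR adjusted p = 6.99e-04).

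Of 7 genes that make or use pyrimidine nucleotides in mitochondria, 3 rose and 1 fell. *Nme4*, *Tk2* and *Polg* did not pass the test, and their groups overlapped. Their log2 fold changes were 0.20 ± 0.10, 0.20 ± 0.11 and -0.02 ± 0.07 (SE, edgeR adjusted p = 0.128, 0.157 and 0.795). *Cmpk2*, a pyrimidine nucleoside monophosphate kinase, had 8.89, 8.04 and 2.68 CPM in Scr and 53.1, 60.9 and 22.5 CPM in Yme1l siRNA cultures. It was higher in all knockdown cultures (log2 fold change 2.80 ± 0.47 (SE), edgeR adjusted p = 0.0011). Both groups varied widely, with replicate 3 the lowest in each. *Nme6*, a nucleoside diphosphate kinase, rose from 6.95 to 18.0 CPM (log2 fold change 1.37 ± 0.10 (SE), edgeR adjusted p = 1.54e-05), and *Polrmt*, the mitochondrial RNA polymerase, from 40.99 to 52.8 CPM (log2 fold change 0.36 ± 0.08 (SE), edgeR adjusted p = 0.00533). *Nt5m*, a nucleotidase, fell from 12.5 to 10.2 CPM (edgeR adjusted p = 0.021), and its call was lost without Scr replicate 1, Scr replicate 2 or Yme1l siRNA replicate 1. The counts of import, transporter, partner and pyrimidine genes each stand beside 28.4% of all loci that rose and 29.6% that fell.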

How the data were processed

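WT MEFs transfected with Scr or Yme1l siRNA for 72 h were profiled by RNA-Seq, with 3 cultures per group and groups taken from the labels. The authors mapped reads to mm10 with HISAT2 2.0.4 and assembled transcripts with StringTie 1.3.3. Their deposited table holds raw counts for 51499 loci. The program that made these counts, its use of strand and its handling of multi-mapping reads are not given in the sources used here. A second deposited table, with the group levels, fold changes and p-values of the authors' Cuffdiff 2.2.1 comparison, was not used, and 0 per-sample columns were unmapped.

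Counts were tested with edgeR 4.0.16 (R 4.3.3) by the quasi-likelihood test, after filterByExpr (minimum count 10, total 15) and TMM scaling, without covariates, and p-values were adjusted over 14499 loci by the Benjamini-Hochberg method at 0.05. SE is the size of the log2 fold change divided by the square root of F. CPM per kilobase uses the merged exon length of GENCODE M21, over all annotated transcripts of a gene. Levels, shares and ranks of different genes per kilobase depend on this choice of length. Coordinates are from GENCODE M21 (GRCm38). Near-identical genes had at least 95% identity over 200 bases in BLAST 2.17.0. None of the 635 loci that join several genes was a member, but *Timm10b*, *Tomm6*, *Smdt1*, *Bax* and *S100a4* of the other lists are at such loci. Motifs were searched in 250 bases before each RefSeq start, and 13 members had no window.

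The members and lists were chosen with earlier results of these data known. The pyrimidine, phosphate and main adenine nucleotide carriers and the VDACs, and the 8 members with the largest called change in each direction whose groups did not overlap, are given by culture, except 1 member that is not reported here. In the lists of import, transporter, partner and pyrimidine genes, the 3 with the smallest adjusted p are named. *Hk1*, *Nt5m*, *Nme4*, *Tk2*, *Polg* and the TIM22 subunits were added after their values were seen. The cell type markers were not named by this rule. Alternatives were DESeq2 1.42.0, limma-voom (limma 3.58.1), other scale factors and count filters, a threshold of 0.01, removal of mtDNA or joined loci, a replicate block and leaving out each library. The test was checked on simulated data of 14334 genes, 200 of them changed by a log2 of 1 in either direction. It recovered 162 of these and made 15 false calls. Here 58.0% of loci were called, so the simulation does not measure the error rate in these data. Libraries within each group differed beyond counting noise, so each counts once. Correlations of the deviations of same-numbered libraries were 0.0409, 0.116 and 0.192. Differently numbered libraries were not compared, so these values cannot decide whether the numbers pair cultures. The main fit did not pair them, and the replicate block is the alternative that does.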

Additional observations from a re-analysis of the deposited data

How the results depend on the processing

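Of the 27 calls among members, 17 held under all 16 alternatives, 10 were lost under at least 1, and none changed direction. At an adjusted p under 0.01, 9 members rose and 8 fell, beside 20.3% and 22.2% of all loci, and 0 genes of pyrimidine use fell. With 1 library left out, 11 to 13 members rose, 8 to 10 fell, and 0 to 1 genes of pyrimidine use fell. Among all loci, 3451 to 4133 rose and 3616 to 4312 fell in these fits. The median log2 fold change of the members was 0.0751 with loci of at least 1 count (0.075 for all loci) and 0.0395 with a mean of at least 50 counts (0.0126 for all loci), and between -0.0093 and 0.0378 with 1 library left out. The cause of these shifts was not tested. With the replicate number as a block, 14 members rose and 11 fell, *Slc25a12* and *Slc25a14* losing their calls. Of all loci, 4227 rose and 4460 fell under the block, against 4123 and 4288 in the main fit. No other member's call changed under the block. The call of *Slc25a12* was lost in 15 of the 16 alternatives and that of *Slc25a14* in 11. Outside these, *Slc25a35* was called under 3 alternatives (other scale factors and the filter at 50 counts).

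Signs changed in 7 members that were not called, all near 0. *Slc25a3* was at 0.0042 and *Slc25a42* at 0.0244 with a mean of at least 50 counts, *Slc25a42* at 0.0132 with upper-quartile factors, and *Slc25a45* at -0.0037 with at least 1 count. With 1 library left out, the lowest and highest values were -0.0851 and 0.0185 for *Slc25a3*, -0.1321 and 0.0216 for *Slc25a24*, -0.1723 and 0.1868 for *Slc25a42*, -0.0006 and 0.0238 for *Slc25a39*, -0.03 and 0.039 for *Slc25a45*, -0.0873 and 0.0117 for *Slc25a46*, and -0.0002 and 0.0574 for *Vdac3*. With 3 cultures per group, 9 members with few counts could not be tested.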
